A study of Bos taurus with 18 samples.

Results

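The circRNAs described here came from genes of the centrosome, the microtubule motors and the chromosome segregation machinery in bovine mammary epithelial cells. They were chosen by name, as every circRNA whose annotated host gene begins with CEP, KIF, CENP, CLASP, DYNC, SMC, CCDC, TTLL, CKAP or TUBG. The rule took 128 of the 3914 circRNAs in the expression table, from 61 of 2220 host genes, and 303 of the 5966 m6A peaks called over the 9 wells. All 61 symbols were found in the bovine gene table, on the same chromosome as in the deposited table. The names cover genes of unlike roles. CCDC means only that a protein holds a coiled coil, KIFAP3 is an accessory protein of kinesin and not a motor, and CENPJ, despite its name, builds centrioles.

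A circRNA is made when the end of an exon is spliced back to the start of an earlier exon, so that the RNA closes into a ring, and the join is called a back-splice junction. m6A is a methyl mark on adenosine that can be enriched from RNA with an antibody. The centrosome is the main site from which an animal cell grows its microtubules, kinesins and dynein are motors that walk along them, and kinetochore proteins and the SMC complexes hold, fold and repair chromosomes so that they can be shared out at division. Many of these genes are long with many exons, and the proteins of several of them also build the primary cilium.

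The cells were MAC-T, a line of mammary epithelium from a cow that was immortalized for culture. They were plated at 200000 per well and left for 12 h. Killed S. aureus or killed E. coli, both inactivated by heat, were then added at a multiplicity of infection of 10 for 24 h. The control group had no bacteria, and its time in culture after the 12 h is not stated. Each group had 3 wells. Each well gave an input library and a library enriched with an antibody against m6A (IP library), which made 18 libraries. Nothing says that the wells came from separate cultures, and all p-values rest on the variation among wells of 1 line.

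Junction reads were few. The control wells held 1529 to 2057 junction reads over all circRNAs, the S. aureus wells 361 to 402 and the E. coli wells 909 to 962. Fewer cells and less circRNA per cell cannot be told apart in these bulk samples, and other causes were not tested. All called m6A peaks numbered 1138 to 1358 per control well, 27 to 29 per S. aureus well and 645 to 857 per E. coli well. In units of 1000000, the clean reads averaged 74.6 (control), 77.2 (S. aureus) and 63.2 (E. coli) in the input libraries and 93.9, 83.6 and 81.3 in the IP libraries, so the S. aureus inputs had the fewest junction reads and the most clean reads. The tables hold only host genes of circRNAs, and of 11 epithelial markers only the adhesion gene CDH1 had a circRNA, with 6 reads. None of 13 fibroblast, immune or endothelial markers had one, so the cell type could not be checked from these data.

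The circRNAs of the rule were exonic circles seen a few times each. Of the 128, 105 (82.0%) were exonic, against 67.5% of the other 3786 circRNAs, and 2 (1.56%) were antisense, against 9.14%. Their median predicted length was 642.5 bases, against 566.5 for the others. In all, 102 of them (79.7%) were seen in 1 well only and 116 (90.6%) had at most 4 junction reads over the 9 wells. The 89 circRNAs that shared a host gene often shared a splice site too, since 52 of them (58.4%) had a start or an end in common with another circRNA of their host, against 41.7% of the other circRNAs with such a neighbour. Circles with a shared end can hold the same exons, and 98 of the 303 peaks lay inside at least 2 circles of the rule. The authors' tables assign each peak to 1 circRNA, so a peak cannot be told apart between nested circles. Nor can it be told apart from linear RNA of the same exon that was left after circRNA enrichment.

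Junction reads of these hosts were 49, 59 and 51 in the control wells, 17, 8 and 35 in the S. aureus wells and 30, 32 and 37 in the E. coli wells. Both treated groups lay below every control well. As a share of all junction reads the order changed, at 3.04% ± 0.502 for control, 5.12% ± 3.30 for S. aureus and 3.55% ± 0.449 for E. coli (SD, 3 wells each). The S. aureus wells gave 4.43% (exact 95% interval 2.60 to 6.99), 2.22% (0.961 to 4.32) and 8.71% (6.14 to 11.9), and these intervals cover counting error only. The control shares ran from 2.48% to 3.44%. The interval of S. aureus well 2 spans them, that of well 1 holds part of their range and that of well 3 lies above them. Well 3 of the S. aureus group stood apart, and 4 host genes, SMC5, KIF27, CCDC18 and CCDC88A, gave 27 of its 35 reads (77.1%). Without that well the S. aureus group held 25 reads, 3.36% of its junction reads. Per 1000000 clean input reads the values were 0.717 ± 0.121 for control, 0.262 ± 0.189 for S. aureus and 0.522 ± 0.0505 for E. coli (SD, 3 wells each). The direction between groups depended on the scale, since all circRNAs together had fewer junction reads in the treated wells.

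**Figure D1:**
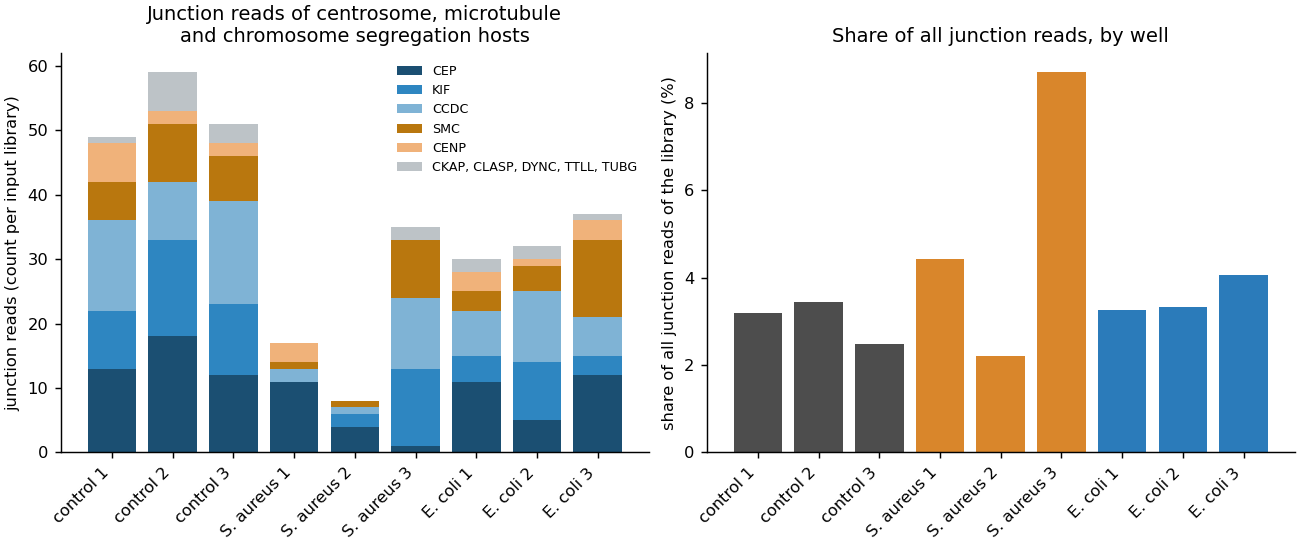
Left, junction reads per input library (count) on circRNAs of the name families, stacked by family; right, their share (%) of all junction reads of the same library, coloured by group. The control wells hold 49 to 59 reads and the treated wells 8 to 37, whereas the share ranges from 2.22% to 8.71% in the S. aureus wells, of which well 3 is the highest of all 9 wells.

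The families differed in size and in reads. The centrosomal CEP genes gave 35 circRNAs from 16 hosts and 87 reads, the kinesin KIF genes 33 circRNAs from 15 hosts and 65 reads, and the CCDC genes 26 circRNAs from 13 hosts and 77 reads. The SMC genes gave 16 circRNAs from 4 hosts and 52 reads, and the CENP genes 8 circRNAs from 6 hosts and 20 reads. CKAP5 had 4 circRNAs with 9 reads, while the dynein, gamma-tubulin, CLASP and TTLL names gave 2, 2, 1 and 1 circRNAs. Different circRNAs were seen in each group: 74 were detected in control wells, 28 in S. aureus wells and 50 in E. coli wells, of which 57, 18 and 32 in that group alone. With at most 4 reads for 116 circles, being seen in 1 group only is not a measured difference.

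The most-read circle was one of SMC5, which with SMC6 forms a ring complex that acts in the repair and segregation of replicated chromosomes. It lies on chromosome 8 (bosTau9, chr8:46417536-46429940, exonic, 195 bases spliced) and had 1, 5 and 1 reads in the control wells, 0, 0 and 4 in the S. aureus wells and 2, 3 and 5 in the E. coli wells. The groups overlapped, and only the S. aureus group had wells without a read. The test took in the 79 circRNAs that reached 2 or more reads in 3 or more of the 9 input libraries. In edgeR's quasi-likelihood fit of these its log2 fold change was 0.75 with a standard error of 1.17 between E. coli and control (Benjamini-Hochberg adjusted p = 0.972). Between S. aureus and control it was -0.09 with a standard error of 1.35 (adjusted p = 0.983).

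Of the 128 circRNAs only 4 reached that filter, and a circle could reach it through 1 group alone. The other 3 were those of CCDC142, CCDC88A and CEP295. CCDC142 (chr11:10153498-10153915, 281 bases) had 2, 0 and 4 reads in the control wells, none in the S. aureus wells and 2, 2 and 0 in the E. coli wells. CCDC88A codes for girdin, an actin-binding protein, and its circle (chr11:38013781-38018889, 824 bases) had 2, 1 and 0 reads in the control wells, 5 in S. aureus well 3 alone and 2 in E. coli well 3 alone. CEP295 is needed for centrioles to mature into centrosomes, and its circle (chr29:1134539-1139430, 513 bases) had 0, 4 and 1 reads in the control wells, 3, 0 and 0 in the S. aureus wells and 2, 0 and 0 in the E. coli wells. In all 4 the treated wells overlapped the control wells. None of the 4 passed in any comparison, at an adjusted p under 0.05 or at a fold of at least 2 with an unadjusted p of at most 0.05. At the latter limits 16.5% of the 79 circRNAs were lower with S. aureus than in the control group and 0% were higher. With E. coli against control 7.59% were lower and 1.27% higher, and with E. coli against S. aureus 2.53% were lower and 12.7% higher. After adjustment 0% of the 79 passed in any comparison (edgeR). The smallest unadjusted p of the 4 was 0.113, of CCDC142 between S. aureus and control, and DESeq2 called none of them either.

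Other circles seen in at least 3 wells or with at least 8 reads came from CCDC18, KIF27, CEP70 and CEP170. One of CCDC18 (chr3:50248024-50277953) had 5 reads in control well 1 and 4 in S. aureus well 3, with none in the other 7 wells. One of KIF27, a kinesin related to the Hedgehog pathway motor KIF7 (chr8:77151421-77169004), had single reads or 2 reads in 2 control and 2 E. coli wells. One of CEP70 (chr1:130531339-130537149) had 1 read in each of 2 control wells and 1 and 2 in 2 E. coli wells, and one of CEP170, a protein of the mother centriole's appendages (chr16:33922009-33951378), had 1 read in a control well and 1 and 2 in 2 E. coli wells.

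Summed per host gene, 12 of the 61 hosts entered the test, among 205 host genes that reached the same filter. KIF13A, a kinesin that carries endosomal cargo, had 4, 4 and 4 reads in the control wells over 9 circles, 0, 0 and 0 in the S. aureus wells and 0, 5 and 0 in the E. coli wells. No S. aureus well reached a control well, in reads or as a share of junction reads, and on the share scale this held for 18.0% of the 205. At the control group's share of junction reads, 2.60 reads were to be expected in the S. aureus wells together, so an empty group lies near the limit of depth, and no fold is given on that scale. Per clean input read KIF13A was at least 4.14-fold lower with S. aureus than in the control group, against a floor of 3 reads over the group. All junction reads together were also lower on that scale, at a mean of 4.96 against 23.7 per 1000000 clean input reads. The test gave an unadjusted p = 0.0277 and an adjusted p = 0.239 (edgeR).

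CKAP5, a microtubule polymerase of the spindle, had 1, 4 and 2 reads in the control wells, 0, 0 and 2 in the S. aureus wells and none in the E. coli wells. The E. coli wells lay below all control wells, which on the share scale held for 8.78% of the 205, with 3.68 reads to be expected at the control share, and the share was at least 1.23-fold lower against the same floor, and reads per clean input read at least 1.98-fold (unadjusted p = 0.0400, adjusted p = 0.512, edgeR). CEP70, a centrosomal protein that binds gamma-tubulin, had 0, 3 and 1 reads in the control wells, none in the S. aureus wells and 2, 0 and 8 in the E. coli wells. Its E. coli and S. aureus wells overlapped at 0, and 6 of the 8 reads of E. coli well 3 came from 1 circle that no other well showed (chr1:130571851-130596464). Against the S. aureus group the share was at least 1.37-fold higher with E. coli, and reads per clean input read at least 4.08-fold (unadjusted p = 0.0310, adjusted p = 0.356, edgeR). All junction reads together also differed on the latter scale. Their means per 1000000 clean input reads were 14.7 with E. coli, 4.96 with S. aureus and 23.7 in the control wells. Each bound pools the 3 wells of a group and leaves out the spread among them. Of the 10 E. coli reads of CEP70, 8 came from well 3.

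KIF13A, CKAP5 and CEP70 were the only hosts past a fold of at least 2 with an unadjusted p of at most 0.05. That is 1 of 12 hosts lower with S. aureus than in the control group, where 18.5% of the 205 host genes were, 1 of 12 lower with E. coli, where 7.32% were, and 1 of 12 higher with E. coli than with S. aureus, where 10.2% were. In each opposite direction there were 0 of 12 and 0.488% of the 205. After adjustment none of the 12 passed, where 0.488% of the 205 were lower with S. aureus than in the control group, 0.488% were higher with E. coli than with S. aureus and 0% differed between E. coli and control. DESeq2, and edgeR without TMM factors, called KIF27 in place of KIF13A and neither CKAP5 nor CEP70. The unadjusted call of KIF13A ended without control well 1 or any 1 of the S. aureus wells, that of CKAP5 without control well 2 or 3, S. aureus well 3 or any 1 of the E. coli wells, and that of CEP70 without control well 1, any 1 of the S. aureus wells or E. coli well 3.

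**Figure D2:**
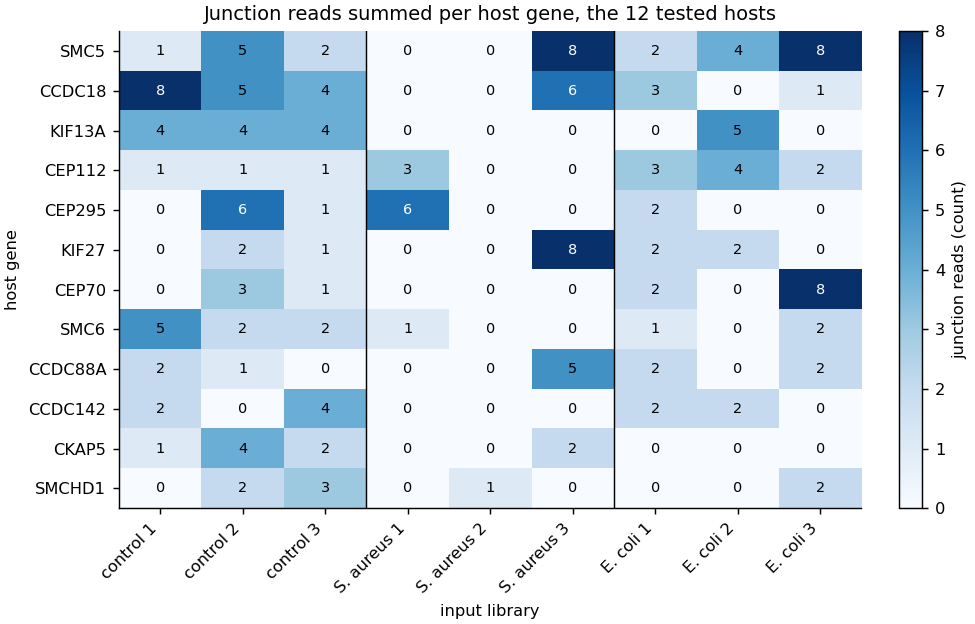
Junction reads (count, printed in each cell) summed per host gene and input library for the 12 host genes that entered the test, ordered by their total. KIF13A has 4 reads in each control well and 0 in each S. aureus well, and the S. aureus reads of SMC5, CCDC18, KIF27 and CCDC88A all come from well 3.

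The remaining 9 tested hosts showed no difference past these limits. The median fitted log2 fold change of the 12 was -1.0 between S. aureus and control, where all 205 had -1.93, and -0.52 between E. coli and control, where all 205 had -0.54. Between E. coli and S. aureus it was 0.40, against 1.18 over all 205. With hosts that lacked any read in 1 group set at their bound on the share scale, or at 0 where there is none, the medians of the 12 were 0, -0.23 and 0, beside 0, -0.47 and 0 over all 205. SMC5 had the most reads of the 61 hosts, with 1, 5 and 2 in the control wells, 0, 0 and 8 in the S. aureus wells and 2, 4 and 8 in the E. coli wells. CCDC18, the host of most circles, with 12 between chr3:50181346 and chr3:50289226, had 8, 5 and 4 in the control wells, 0, 0 and 6 in the S. aureus wells and 3, 0 and 1 in the E. coli wells. In both genes the S. aureus wells reached the control wells through well 3 alone. In reads the E. coli wells of CCDC18 lay below its control wells, which held for 12.2% of the 205. As a share of junction reads, however, E. coli well 1 lay above control wells 2 and 3. Its log2 fold change was -1.77 with a standard error of 1.33 (edgeR, adjusted p = 0.928).

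CEP112, with 7 circles, was seen once in each control well and had 3, 0 and 0 reads with S. aureus and 3, 4 and 2 with E. coli. All of its E. coli wells lay above all control wells, also as a share, which held for 4.39% of the 205, with a log2 fold change of 1.74 and a standard error of 1.61 (edgeR, adjusted p = 0.928). SMC6, with 6 circles, had 5, 2 and 2 reads in the control wells, 1, 0 and 0 with S. aureus and 1, 0 and 2 with E. coli. In reads the S. aureus wells lay below the control wells, which held for 26.8% of the 205. Their shares of junction reads overlapped, however. E. coli well 3 had as many reads as control wells 2 and 3, with 2 in each. KIF27, also with 6 circles, had 8 of its 15 reads in S. aureus well 3. Apart from CKAP5, no host of the smaller families had enough reads for the test. The most-read CKAP5 circle (chr15:76725400-76738717, sense overlapping) had 4 reads, all in control well 2. The most-read CENP circle, on CENPJ (chr12:36486712-36505075), had 6 reads, all in control well 1. DYNC2LI1, a light intermediate chain of the ciliary dynein, had 2 reads in E. coli well 2, TUBG1, gamma-tubulin itself, 2 reads in control well 2, and CLASP2, which steadies microtubule plus ends, and TTLL1, which adds glutamates to tubulin, 1 read each in an E. coli well. KIFAP3 had 2 reads in control well 2 and 1 in well 3, on a circle annotated as sense overlapping that spans 53473 bases.

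m6A peaks on these circRNAs numbered 79, 61 and 83 in the control wells, 0, 0 and 0 in the S. aureus wells and 31, 31 and 18 in the E. coli wells. The groups did not overlap, nor did those of all peaks. These circRNAs held 5.36% to 6.74% of all called peaks in the control wells, 0% in the S. aureus wells and 2.79% to 4.75% in the E. coli wells. The control peaks lay on 46 circRNAs of 33 host genes and the E. coli peaks on 27 circRNAs of 20. No circRNA had a peak with E. coli only, and 35.9% of the 128 had a peak somewhere, against 27.5% of the other circRNAs. Many circRNAs with a peak had no junction read in the inputs. Of the 46 circRNAs with a control peak, 23 had a junction read in any control input well, and of the 27 with an E. coli peak, 13 had one in an E. coli input well. That is 1 in 2 and 48.1%, where the other circRNAs had 62.5% and 34.8%.

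Where peaks overlapped on the same strand they were joined, which left 103 distinct peaks on these circRNAs over the control and E. coli wells. All 103 were called in at least 1 control well, and 42 of them (40.8%) also in an E. coli well. No peak was seen in E. coli wells alone, whereas 81 of 974 E. coli peaks on other circRNAs (8.32%) were. The deposited false discovery rates of the peaks on these circRNAs ran from 10.0% to 100% in the control wells and from 1.35% to 30.7% in the E. coli wells. No control peak on any circRNA was at or below 5%, while 26 of 31, 27 of 31 and 15 of 18 of these E. coli peaks were. Over all circRNAs, 390 of 653, 601 of 857 and 353 of 645 peaks in E. coli wells 1, 2 and 3 were. The difference between these shares was not tested.

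With S. aureus not one of the 103 regions was called. Of the distinct peaks in the control and S. aureus wells, 50 of 103 on these circRNAs were called in all 3 control wells and in no S. aureus well, where 55.4% of the 1620 peaks on all circRNAs were, and 0 in the reverse, where 0.494% were. The absence is that of nearly all peaks: only 37 distinct peaks were called in the S. aureus group at all, and 0 of 37 allows a share of up to 8.11% (3 counts of 37, counting error only), while the control share was 6.43% of 1601. A share below that of the control group was therefore not detectable. Between E. coli and S. aureus, 11 of 42 distinct peaks were called in all E. coli wells and in no S. aureus well, where 42.7% of 1031 peaks on all circRNAs were. The reverse held for 0 of 42 and for 0.291% of the 1031.

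Fewer control peaks on these circRNAs than on the rest were called again with E. coli. Of 103 distinct peaks, 20 were called in all 3 control wells and in no E. coli well, called lost peaks here, where 10.6% of 1682 peaks on all circRNAs were. The reverse held for 0 of 103 and for 0.178% of the 1682. Among the 50 peaks called in all 3 control wells, these 20 make 40%, against 18.4% of the 866 such peaks on other circRNAs and 19.5% over both. At the other end, 10 of the 50 were called in all 3 E. coli wells, against 423 of the 866 (48.8%). The shares were 38.2% lost among exonic circles and 43.8% among sense overlapping ones, against 18.4% and 19.2% elsewhere. The 50 peaks lie on 24 host genes and are not independent, and the difference between the 2 sets of peaks was not tested.

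**Figure D3:**
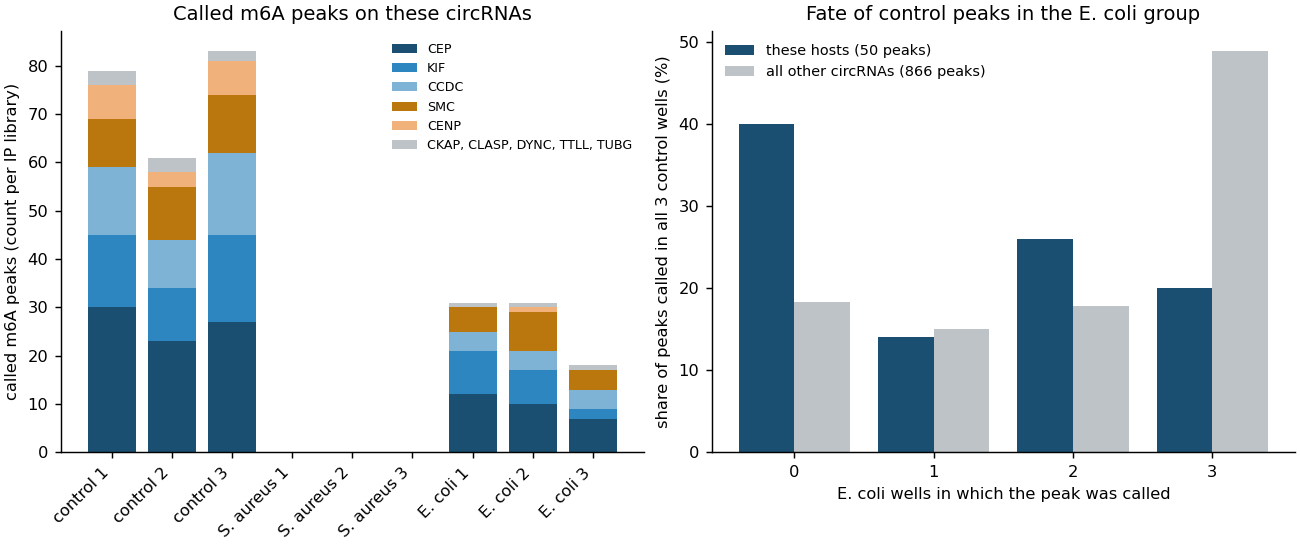
Left, called m6A peaks per IP library (count) on circRNAs of the name families, stacked by family; right, of the peaks called in all 3 control wells, the share (%) called in 0, 1, 2 or 3 E. coli wells, for these host genes (50 peaks) and for all other circRNAs (866 peaks). The S. aureus wells have 0 peaks, and 20 of the 50 control peaks are called in no E. coli well, against 159 of 866 elsewhere.

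Weak peaks were lost most often. The fold enrichment, the ratio of IP to input reads that the peak caller gives, had a median of 21.7 over the 50 peaks in the control wells and of 26.4 over the other 866. Of the 20 peaks below a mean of 20 in the control wells, 13 (65.0%) were called in no E. coli well, against 87 of 272 peaks of other circRNAs in that range. Between 20 and 40 it was 7 of 23 (30.4%) against 16.2%, and at 40 or more 0 of 7 against 5.05%. With only peaks of at least 20-fold enrichment in each well counted, 3 peaks in place of 20 were in all control wells and no E. coli well. The share over all circRNAs was not counted at this limit, so this fall cannot be set beside that of all peaks.

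The families lost unequal shares of their peaks. Of 9 CCDC peaks called in all control wells, 6 were called in no E. coli well, and of 3 CENP peaks all 3. The CEP genes lost 6 of 19, the KIF genes 2 of 9, the SMC genes 2 of 8 and the dynein subunit DYNC1I2 1 of 2. CCDC18 alone accounts for 4 of the 20, all on 1 circle annotated as sense overlapping that spans 78892 bases (chr3:50199084-50277975) and had 5, 6 and 8 peaks in the control wells and 1 in each E. coli well. This circle had a single junction read, in E. coli well 1.

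The 5 strongest of the 20 lost peaks lay on SMC6, CEP290, CCDC18, KIF24 and CENPJ. The SMC6 peak (chr11:80911525-80911670, within an exonic circle) had fold enrichments of 35.3, 35.7 and 24.6 in the control wells, a mean of 31.9 ± 6.29 (SD, n = 3). CEP290, a gatekeeper at the base of the cilium, had 34.6, 20.6 and 31.3 on a peak of 54 bases at the end of its circle (chr5:17920155-17920208). CCDC18 had 29.9, 30.8 and 17.7 (chr3:50203644-50204219). In all 5 genes the peak was above 20 in at least 2 of the control wells and was called in no E. coli well. KIF24, a kinesin that trims microtubules at centrioles, had 27.5, 16.6 and 30.7 (chr8:75699984-75700631). CENPJ, which sets the length of centrioles, had 30.7, 16.2 and 20.4 (chr12:36495733-36497368). CENPJ had 2 such peaks and 8 called peaks over the control wells in all, and none in an E. coli well. CENPF, a kinetochore protein of dividing cells, had 5, 1 and 3 peaks in the control wells and 1 in E. coli well 2.

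**Figure D4:**
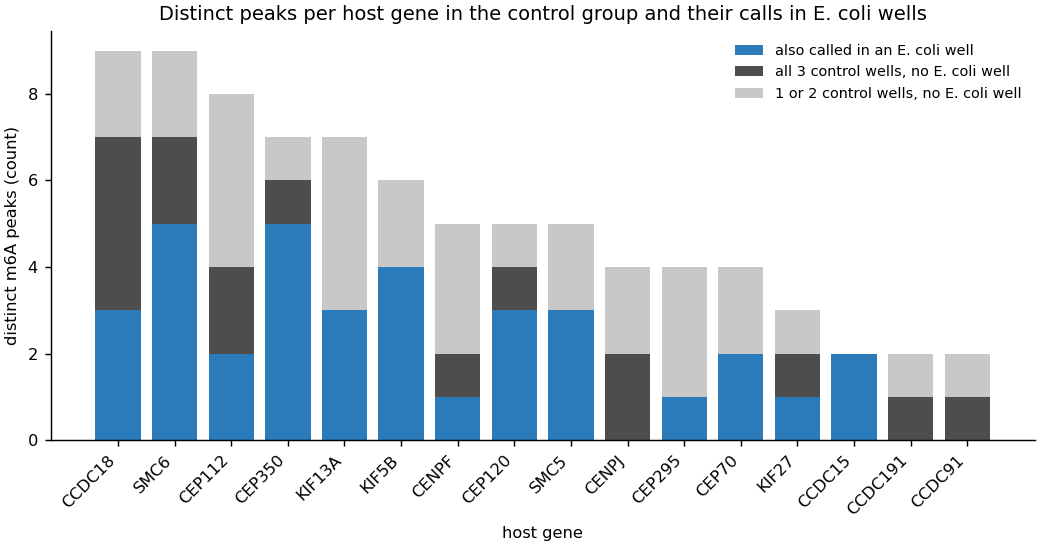
Distinct m6A peaks (count) of the 16 host genes with most of them in the control group, split by whether the peak was also called in an E. coli well (blue), called in all 3 control wells and no E. coli well (dark), or called in 1 or 2 control wells and no E. coli well (light). CCDC18 lost 4 of its 9 peaks in the dark class, and CENPJ kept none of 4 while CEP350 kept 5 of 7.

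Other hosts had peaks in both groups, mostly fewer with E. coli. CEP350, which anchors microtubules at the centrosome, had 6, 5 and 5 peaks in the control wells and 5, 4 and 2 in the E. coli wells on 1 exonic circle (chr16:61222513-61247423). CEP120, a protein of centriole assembly, had 4, 4 and 5 peaks and then 2, 2 and 3. KIF5B, the heavy chain of kinesin-1, had 4, 4 and 5 peaks in the control wells and 4, 2 and 0 in the E. coli wells, so that E. coli well 3 lacked all of them. SMC5 had 3, 5 and 3 control peaks and 3 in each E. coli well, and KIF3C had 1 in each of these 6 wells. Peaks of SMC5 lay on other circles than the most-read one, which had none in any well. E. coli well 3 had the fewest peaks of its group on these circRNAs. Without it 21 in place of 11 peaks were in all remaining E. coli wells and no S. aureus well. Leaving out a well also asks for calls in fewer wells, which by itself can raise this count.

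Peaks on these circRNAs were short and often interior. Their median length was 181 bases, against 288 for the peaks of other circRNAs, and 43.6% reached an end of their circle, against 64.5%. Circles with a peak also carried more of them, 1.93, 1.69 and 2.08 per circle in the control wells, against 1.45, 1.41 and 1.44 elsewhere. In the E. coli wells these means were 1.55, 1.35 and 1.38, against 1.29, 1.35 and 1.27, so that the sets overlapped in E. coli well 2. Within the rule, circRNAs with a peak had a median length of 844 bases and those without one 524.5 bases. The part of length in the number of peaks was not tested.

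The strongest peaks were those of KIF3C, CEP85L, CEP120, CEP350, CCDC92, SMC5 and CCDC15. KIF3C, a motor subunit of kinesin-2, had fold enrichments of 70.9, 61.1 and 70.2 in the control wells and 70.6, 110.6 and 135.9 in the E. coli wells, on a peak that fills its 177-base circle (chr11:73460759-73460935, sense overlapping). E. coli wells 2 and 3 lay above all control wells and E. coli well 1 within their range. CEP85L had 67.2, 49.1 and 50.4 in the control wells (chr9:32397459-32398246), and 76.7 and 92.3 in E. coli wells 1 and 3, with no call in well 2. CCDC92 had 64.2, 52.8 and 20.4 in the control wells (chr17:51791633-51792404) and 32.4 in E. coli well 2 alone. The E. coli value of CCDC92 lay within its control range.

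Only 10 peaks on these circRNAs were called in all 3 control and all 3 E. coli wells, so that their strength could be compared. They lay on CEP120, CEP350, SMC5 (2 peaks each), SMC6, KIF27, KIF3C and CCDC15. In limma's test of the log2 fold enrichment over all 433 such peaks, none of the 10 and 0% of the 433 had an adjusted p under 0.05 in either direction. None of the 10 was higher in every E. coli well than in every control well, where 9.47% of the 433 were. At an unadjusted p of at most 0.05 there were 1 of 10 and 37 of 433. The median log2 difference of the 10 was 0.02, with 5 higher and 5 lower in E. coli wells, while over all 433 it was 0.19 with 299 higher. Centring each well on its median removed the shift of all peaks and put the 10 at a median of -0.16.

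CEP120 had the largest difference of the 10. Its peak at the end of the circle (chr7:30439288-30439868) had 92.5, 32.4 and 39.9 in the control wells and 22.4, 27.8 and 31.2 in the E. coli wells. Every E. coli well was below every control well, which held for 1.62% of the 433 peaks, and control well 1 stood far above the other control wells. The log2 difference was -0.87 with a standard error of 0.38 (limma, adjusted p = 0.457), and -0.42 without control well 1. A second peak of the same circle (chr7:30436559-30437516) had 68.9, 22.5 and 34.2 and then 26.3, 20.1 and 49.6, and the groups overlapped. KIF3C differed by 0.60 with a standard error of 0.35 (adjusted p = 0.592).

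SMC5 had 2 of the 10 peaks, on different circles. The first (chr8:46465536-46465697) had 26.1, 40.5 and 34.8 in the control wells and 17.5, 16.8 and 31.3 in the E. coli wells, a log2 difference of -0.67 with a standard error of 0.36 (limma, adjusted p = 0.570). The second (chr8:46492158-46492413) averaged 45.4 ± 12.1 and 44.5 ± 4.94 (SD, n = 3 each). The groups of the first peak overlapped in E. coli well 3. With each well centred on its median, the log2 differences of the 2 peaks were -0.85 and -0.18. The difference between the 2 peaks was not tested. The stronger peak of CEP350 (chr16:61228150-61228808) averaged 46.4 ± 11.8 in the control wells and 47.3 ± 2.55 in the E. coli wells, and that of CCDC15 (chr29:28465522-28466857) 34.8 ± 26.9 and 44.9 ± 8.73 (SD, n = 3 each). These differences were smaller than the spread between the control wells. The weaker peak of CEP350 (chr16:61226786-61226932) had 22.4, 25.4 and 20.8 in the control wells and 49.7, 23.2 and 29.6 in the E. coli wells, and overlapped in E. coli well 2.

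**Figure D5:**
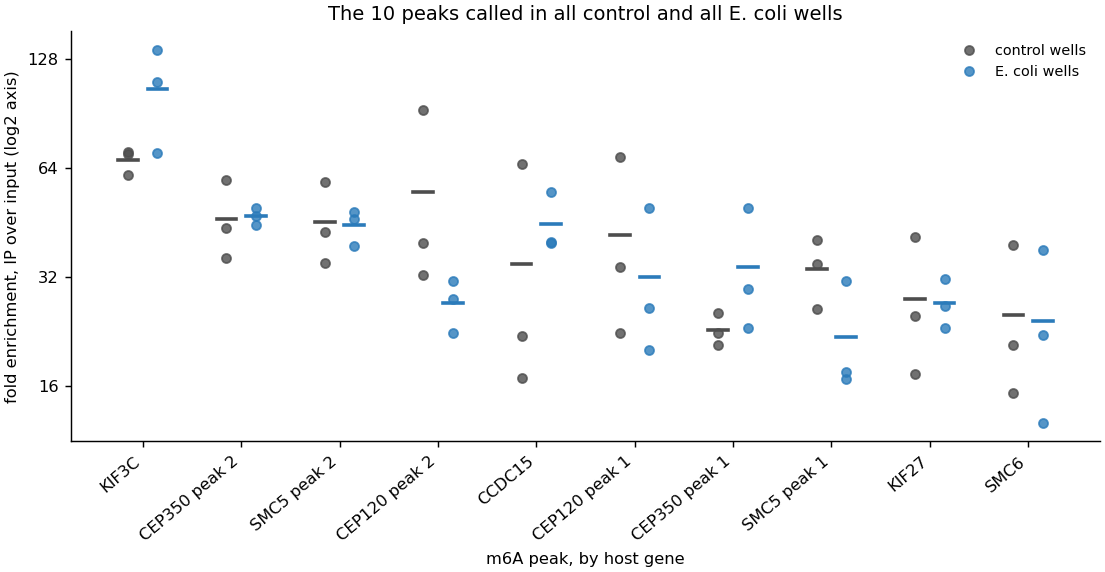
Fold enrichment (IP over input, log2 axis) of the 10 peaks called in all control and all E. coli wells; points are wells (grey control, blue E. coli), bars are group means, and peaks of 1 host gene are numbered along the chromosome. Only CEP120 peak 2 has every E. coli well below every control well, and KIF3C has the highest means, 67.4 over control and 105.7 over E. coli wells.

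Some hosts with a peak showed few reads or the reverse. CCDC191 (chr1:58637202-58671946, sense overlapping) had 6 junction reads in E. coli well 2 and none elsewhere, but its peaks were called in the control wells only, 2, 1 and 1 of them. The peak at the end of its circle had 14.1, 29.4 and 18.8. TUBG1 is annotated to a sense overlapping circle of 43384 bases (chr19:42679175-42722558), with peaks in control wells 1 and 2 and in E. coli well 2, 1 in each. KIFAP3, CKAP5, CEP170, CLASP2, TTLL1 and SMCHD1, a chromatin protein of the inactive X chromosome, had junction reads and no peak in any well. A sense overlapping circle can span introns and other transcripts, so its peaks may not belong to the named gene alone.

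Genes of the same processes with other names were counted alongside, without a test. Lists of 30 centrosome and cilium genes, 39 microtubule and motor genes and 51 kinetochore, spindle and segregation genes had 13, 16 and 15 hosts with a circRNA. Their junction reads were 37, 43 and 61 over the control wells, 4, 13 and 9 over the S. aureus wells and 23, 15 and 37 over the E. coli wells. All 3 lists had 0 peaks in the S. aureus wells. Of the peaks called in all control wells, 5 of 15 of the centrosome list, 2 of 19 of the microtubule list and 2 of 9 of the segregation list were called in no E. coli well, beside 20 of 50 for the circRNAs above and 19.5% of all such peaks. In the microtubule list 12 of 19 were called in all E. coli wells, beside 10 of 50 for the circRNAs above. The peaks called in all control wells lay on only 3 host genes of the centrosome list, 7 of the microtubule list and 6 of the segregation list. AKAP9 alone had 12, 13 and 14 of the 19 peaks that the centrosome list had in each control well.

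AKAP9, a scaffold that anchors kinase at the centrosome, had 12, 13 and 14 peaks in the control wells and 7, 6 and 6 in the E. coli wells, the most of the centrosome list. HAUS6, a subunit of the augmin complex that branches spindle microtubules, had 1 read in a control well, none with S. aureus and 2, 6 and 3 with E. coli, with no peak. POC1B, a centriole protein, had 7 reads in control wells, 1 with S. aureus and 3 with E. coli. ANLN, the anillin of the dividing cell's contractile ring, had 3, 4 and 6 reads in the control wells, 1, 2 and 1 with S. aureus and 0, 3 and 3 with E. coli, and kept 2, 2 and 1 peaks with E. coli. CIT, the citron kinase of cytokinesis, had 6, 4 and 0 reads in the control wells and 2, 3 and 0 with E. coli. NIPBL, the loader of cohesin, had 3, 1 and 4 and then 6, 0 and 0. Neither had a read with S. aureus. At this depth that is not a measured difference, and 78 of the 205 tested host genes had no read in the S. aureus or the control group. Of the microtubule list DST, CAMSAP1 and KLC1 had the most reads, 11, 9 and 9, and the linker DST, with 7, 6 and 7 control peaks, had 5, 6 and 5 with E. coli.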

How the data were processed

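The authors enriched circRNA, made input and m6A IP libraries of 9 wells, and called circRNAs with DCC. The submitters' notes name cutadapt 1.9.3 for trimming, STAR 2.5.1b for alignment and bosTau9. The deposited expression table holds raw counts of junction reads. Per the file headers, each deposited peak table gives a fold enrichment, which is a ratio of IP over input, and a false discovery rate in percent. Peaks were called per IP library, and the caller's version is not given in the sources used here. The authors' normalized log2 values and edgeR 3.16.5 comparisons were not used. Scarce junction reads (361 to 2057 per input library) leave wide errors.

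Host genes were matched by name prefix, and positions were counted from 1. For the counts edgeR 4.0.16 was run in R 4.3.3 (TMM, total junction reads as library size, 1 fit over 3 groups, at least 2 reads in at least 3 libraries). DESeq2 1.42.0 was an alternative. Peaks sharing at least 1 base on the same strand were merged with pandas 2.3.3. The largest fold enrichment per well was compared with limma 3.58.1 over peaks called in all 6 wells, with no imputation. P-values were adjusted by Benjamini-Hochberg over all features tested. Both tests were also run on simulated data. The simulated counts had less spread than the counts here and were fitted without TMM factors, so they do not show how edgeR performs on these data. Intervals are exact binomial, the limit for a count of 0 is 3 counts of the total, and a group without a read was set at a floor of 3 reads over the group.

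Circles were named if tested, seen in at least 3 wells or with at least 8 reads, or most read in a family. Peaks were named if among the 10 strongest or the 5 strongest lost with E. coli. The 5 hosts with most circles, 3 hosts the study names (TUBG1, CCDC191, KIFAP3) and up to 3 genes per list were added, and the others were named after their values were seen. The members and gene lists were chosen with earlier results of these data known. No sequences are printed, since no genome of bosTau9 was used here.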

Additional observations from a re-analysis of the deposited data

How the results depend on the processing

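No circRNA or host gene of the rule passed an adjusted p of 0.05 under any alternative, and no peak did in the comparison of fold enrichment. The unadjusted host calls moved. In the order S. aureus against control, E. coli against control and E. coli against S. aureus, the 1, 1 and 1 calls became 1, 0 and 0 with DESeq2 and without TMM factors, 2, 1 and 2 with clean input reads as library size and 1, 0 and 1 with the filter of 1 read or none. With 1 well left out they ranged from 0 to 1, 0 to 1 and 0 to 2. No pairing by well number was seen. The correlations of same-numbered wells ran from -0.19 to 0.13 and those of differently numbered wells from -0.13 to 0.17. With so few reads a pairing could be missed. With the well numbers as a replicate block the calls were 1, 0 and 0. The SMC5 circle, -0.09 between S. aureus and control, turned to 1.26 without TMM factors and ranged from -4.03 to 1.08 with wells left out.

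Per 1000000 clean input reads, the ratio to control of the junction reads reversed, from 1.68 to 0.365 for S. aureus and from 1.17 to 0.728 for E. coli. With wells left out the ratio of shares was 1.09 to 2.16 for S. aureus and 1.07 to 1.25 for E. coli. The ratio of peaks, 0.359 for E. coli, was 0.688 with peaks of at least 20-fold enrichment and 0.329 to 0.417 with wells left out. At that limit 14 peaks in place of 50 were in all control and no S. aureus wells, and 3 in place of 20 in all control and no E. coli wells. With calls in at least 2 wells the latter were 33, and 27 in place of 11 were in E. coli and no S. aureus wells. With wells left out these counts were 50 to 62, 21 to 28 and 11 to 21. A left-out well also loosened the rule, since calls or their absence were then asked of the remaining wells only. These counts could therefore hardly fall, and their ranges do not check the main counts. An overlap of 50% changed none. Shares over the peaks of all circRNAs were not counted under these alternatives, so the moves cannot be set beside those of all peaks. The causes were not tested.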
